A study of Mus musculus with 11 samples.

Results

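Chaperones are proteins that help other proteins fold, and the genes described here make the chaperones of the cytosol, the mitochondrion and the endoplasmic reticulum (ER), together with the genes that sense and relieve ER stress. The list held 39 genes given by name, with no threshold on a measured value. Of these, 37 had a probe set that was annotated to 1 gene symbol, out of 18193 such genes on the array, and where a gene had several, the brightest of them over the 11 arrays stands for it. The gene table used here gave no such probe set for Hsp90ab1, the constitutive cytosolic HSP90, or for Hsf1, the heat shock transcription factor, and both were not analysed here.

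RNA came from splenic and lymph node CD4 T cells of mice 6 to 8 weeks old, selected with CD4 beads and sorted on GFP in 2 rounds, and each sample was hybridised to 1 Affymetrix array. TN denotes naive Foxp3-negative CD4 T cells (3 arrays), Treg denotes Foxp3-positive CD4 T cells (5 arrays), and GFPKO denotes GFP-positive CD4 T cells of Foxp3GFPKO/WT mice (3 arrays), which carry a GFP-marked knockout allele of Foxp3, the transcription factor of regulatory T cells, beside a wild-type allele. The labels give no strain, no treatment, no reporter allele for the TN and Treg mice, and no statement that the replicates came from separate animals, so the p-values reflect sample-to-sample spread that may be only technical. All values are RMA expression values on the log2 scale, so a difference of 1 is a 2-fold change.

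Cytosolic HSP70 chaperones work with J proteins, which hand them their clients, and heat shock factor raises many of these genes when proteins unfold in the cytosol. In the ER, unfolded protein is sensed by the membrane proteins IRE1 (Ern1), PERK (Eif2ak3) and ATF6: IRE1 splices the Xbp1 RNA, PERK slows translation and favours the translation of ATF4, and ATF6 is cut to release a transcription factor. XBP1, ATF4 and ATF6 then raise genes for ER chaperones, disulfide isomerases and ER-associated degradation, the route by which misfolded proteins leave the ER. XBP1 is best known in lymphoid tissue for the large secretory apparatus of plasma cells. The arrays read total Xbp1 RNA per probe set and do not tell the spliced form from the unspliced one.

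The promoters of 8 of the ER genes hold the same sequence element, and the stretches that carry it are shown for comparison. The members were listed as chaperone and ER stress genes, and the element is named for the same response. Its share among them is therefore no independent finding. RefSeq promoter windows, from 250 bases before to 50 after the annotated start on GRCm38.p6, were at hand for 31 of the 39 genes (36 windows). The ER stress response element (ERSE, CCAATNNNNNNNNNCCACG, searched on both strands) stood in the windows of 8 of these 31 genes (25.8%), against 37 of 27025 genes in the whole table (0.137%) and 0.119% of its 32851 windows. Each stretch below is written 5′ to 3′ on the strand of its gene, with the fixed letters of the element in capitals, so that the element reads CGTGG to ATTGG where it runs the other way. The stretches are chr2:34772005-34772063 (plus strand) for Hspa5, chr10:86705533-86705656 (minus) for Hsp90b1, chr14:118937807-118937865 (plus) for Dnajc3, chr15:88819500-88819558 (plus) for Creld2, chr8:84847055-84847113 (minus) for Calr, chr11:50325795-50325823 (minus) for Canx, chr12:17266471-17266529 (plus) for Pdia6 and chr19:6046512-6046570 (plus) for Syvn1. All lie upstream of the start, and all except that of Canx, which falls in the annotated gene Gm46280, lie in no annotated gene.
Hspa5: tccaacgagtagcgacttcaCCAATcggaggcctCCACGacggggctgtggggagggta
Hsp90b1: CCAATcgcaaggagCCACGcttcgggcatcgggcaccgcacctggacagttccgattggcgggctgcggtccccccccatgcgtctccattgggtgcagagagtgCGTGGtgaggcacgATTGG
Dnajc3: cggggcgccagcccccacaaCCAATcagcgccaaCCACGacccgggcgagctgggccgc
Creld2: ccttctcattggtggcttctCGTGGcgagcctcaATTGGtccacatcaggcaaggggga
Calr: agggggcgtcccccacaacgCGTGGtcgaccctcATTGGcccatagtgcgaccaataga
Canx: attgaCCAATcaccacgctCCACGaagaa
Pdia6: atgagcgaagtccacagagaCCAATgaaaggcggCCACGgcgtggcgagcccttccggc
Syvn1: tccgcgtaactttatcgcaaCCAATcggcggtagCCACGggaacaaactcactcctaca

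Hsp90b1 held 2 such elements in its window and the other 7 genes held 1 each. The related ERSE-II (ATTGGNCCACG) stood in 2 members, Herpud1 and Dnajb11, against 0.0444% of all genes and 0.0365% of windows. A heat shock element, taken as GAANNTTCNNGAA, stood in 3 members, all chaperones of the cytosol or mitochondrion (Hsph1, Hspd1 and Hspe1), which is 9.68% of the members with a window against 0.662% of all genes and 0.603% of windows. Hspd1 and Hspe1, which make the mitochondrial HSP60 and its lid HSP10, lie on opposite strands of chromosome 1. Their annotated starts are 216 or 95 bases apart, depending on the Hspd1 start. The same stretch counts for both, for Hspd1 from 1 of its starts. The C/EBP-ATF element, the site of ATF4 and CHOP dimers (TGATGNAAN), stood in Trib3 and Herpud1, against 4.5% of all genes and 3.95% of windows. Shown first is the ERSE-II of Herpud1 (chr8:94386353-94386411, plus strand). The overlapping heat shock elements in windows of both Hspd1 and Hspe1 follow, on the strand of Hspe1 (chr1:55088053-55088082, plus strand, within the annotated Hspd1 gene). Their fixed letters are in capitals.
Herpud1: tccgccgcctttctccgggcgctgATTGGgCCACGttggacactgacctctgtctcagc
Hspe1: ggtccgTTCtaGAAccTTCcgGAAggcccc

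No window was at hand for 8 genes (Hspa8, Hsp90aa1, Hsp90ab1, Hsf1, Hspa9, Atf6, Hyou1 and Manf), and the windows of 17 genes, Xbp1, Hspb1, Sdf2l1, Hspa1a and Hspa1b among them, held none of the 4 motifs as spelled here. A match is a run of letters and not a measured binding site.

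**Figure D1:**
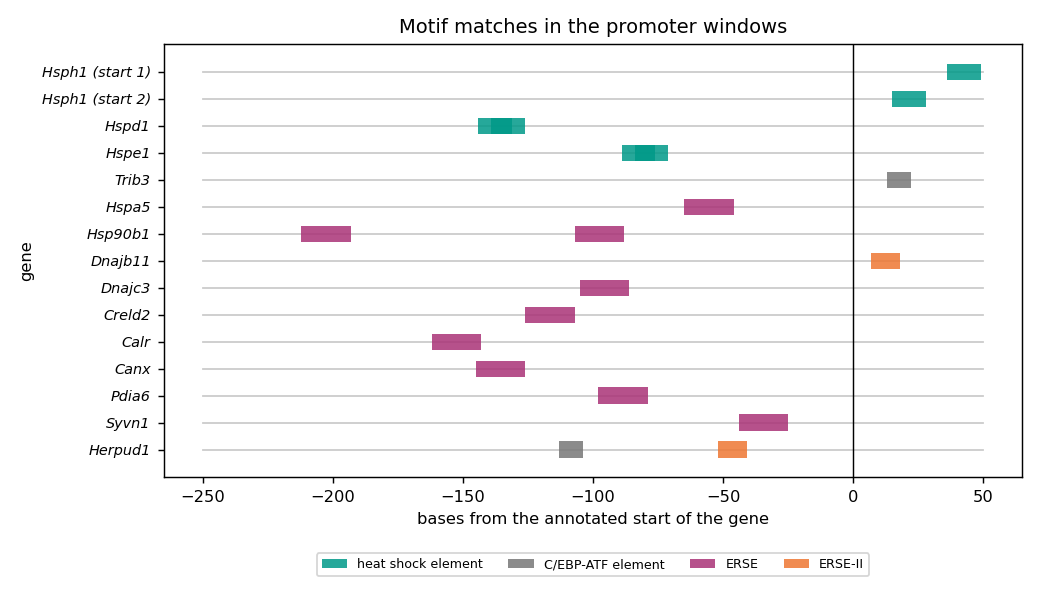
Position of each motif match, in bases from the annotated start (0), in the RefSeq promoter window of each gene that held one; grey lines are the windows, and Hsph1 has 2 starts. The ERSE matches (8 genes) all lie before the start, and the overlapping heat shock matches of Hspd1 and Hspe1 are the same stretch of chromosome 1 seen from each gene.

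Several facts of the whole series bear on these genes. The Foxp3 probe set read 3.12 to 3.99 in TN, 3.29 to 3.64 in Treg and 6.75 to 7.19 in GFPKO, so it goes against the Treg label, although 8 of 9 genes typical of regulatory T cells were higher in Treg than in TN by the test and 4 of 5 naive T cell genes were lower. "Treg" therefore means the arrays labelled Treg throughout, and the highest TN value, 3.99, was taken as the background level. All arrays carried T cell genes (mean of 6 CD4 T cell identity genes 11.07 to 11.44). The GFPKO arrays read high for Xist and low for Y-linked genes and all others the reverse, so sex and genotype cannot be told apart. The actin control, 3′ minus 5′ probe set, a sign of RNA quality, read 0.77 and 0.83 in GFPKO replicates 1 and 2, 0.45 in replicate 3, and 0.38 to 0.61 in all TN and Treg arrays. Of 16 markers of myeloid and dendritic cells, 1 was higher in Treg than in TN and 9 were lower, and 9 were lower in GFPKO than in TN. Their mean level ran from 5.94 to 6.38 in TN, 5.00 to 5.40 in Treg and 4.61 to 4.94 in GFPKO. Of 9 B cell markers, 2 were higher and 1 lower in Treg than in TN, of 2 CD8 markers 1 was lower in GFPKO than in TN, and of 5 erythroid and platelet markers none was called by limma in any comparison (1 at an unadjusted p under 0.05). Of 13 cell cycle genes, 8 were higher in Treg than in TN and 2 in GFPKO than in TN.

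Few of the chaperone and ER stress genes were called different between the groups. Against TN, the Treg arrays had 2 of 37 genes higher, the ER stress factor gene Xbp1 (1.58-fold) and the small heat shock protein gene Hspb1 (1.59-fold), and none lower. GFPKO against TN had 1 gene higher, again Xbp1 (1.51-fold), and 1 lower, the stress-inducible HSP70 gene Hspa1b (6.04-fold). Treg against GFPKO had 4 genes higher, Hspb1 (1.74-fold), the ER co-chaperone gene Sdf2l1 (1.53-fold), the ER degradation gene Herpud1 (1.45-fold) and the mitochondrial HSP10 gene Hspe1 (1.35-fold), and none lower. The other 31 genes were called in no comparison.

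Calls were made with limma, at adjusted p-values under 0.05, from a linear model with 1 mean per group fitted to all 18193 genes, with Benjamini-Hochberg adjustment over all of them. The share of genes called higher in Treg than in TN was 5.41% of the 37 and 6.54% of all genes, and for genes called lower it was 0% against 3.42%. In GFPKO against TN it was 2.7% higher against 2.64% of all genes, and 2.7% lower against 3.02%. In Treg against GFPKO, 10.8% of the members were higher against 6.88% of all genes, and 0% lower against 2.55%. Each of these shares rests on 4 genes or fewer, and 1 gene more or fewer moves a share by 2.7%. Where no member was called lower, 6 (Treg minus TN) and 1 (Treg minus GFPKO) were lower at an unadjusted p under 0.05 in the same fit. Over all 18193 genes, 1461 and 1190 were lower in this way.

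The middle of the list lay close to that of all genes. The median log2 difference of the 37 genes was -0.07 for Treg minus TN (0.03 for all genes), -0.13 for GFPKO minus TN (-0.04) and, between Treg and GFPKO, 0.10 (0.08), and 14, 11 and 24 of the 37 differences were positive. Centring each array on its median moved the all-gene median by -0.14 in Treg minus TN and by -0.17 in Treg minus GFPKO. The member medians then read -0.21 and -0.07, beside -0.11 and -0.09 for all genes. With this centring, 43.5% of the calls over all genes for Treg minus TN were higher, in place of 65.6%, and 42.9% for Treg minus GFPKO, in place of 73%. Among the members 3 genes were then called lower in Treg than in TN (Atf4, Dnajc3 and Eif2ak3), and Herpud1 and Hspe1 were no longer called in Treg minus GFPKO.

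**Figure D2:**
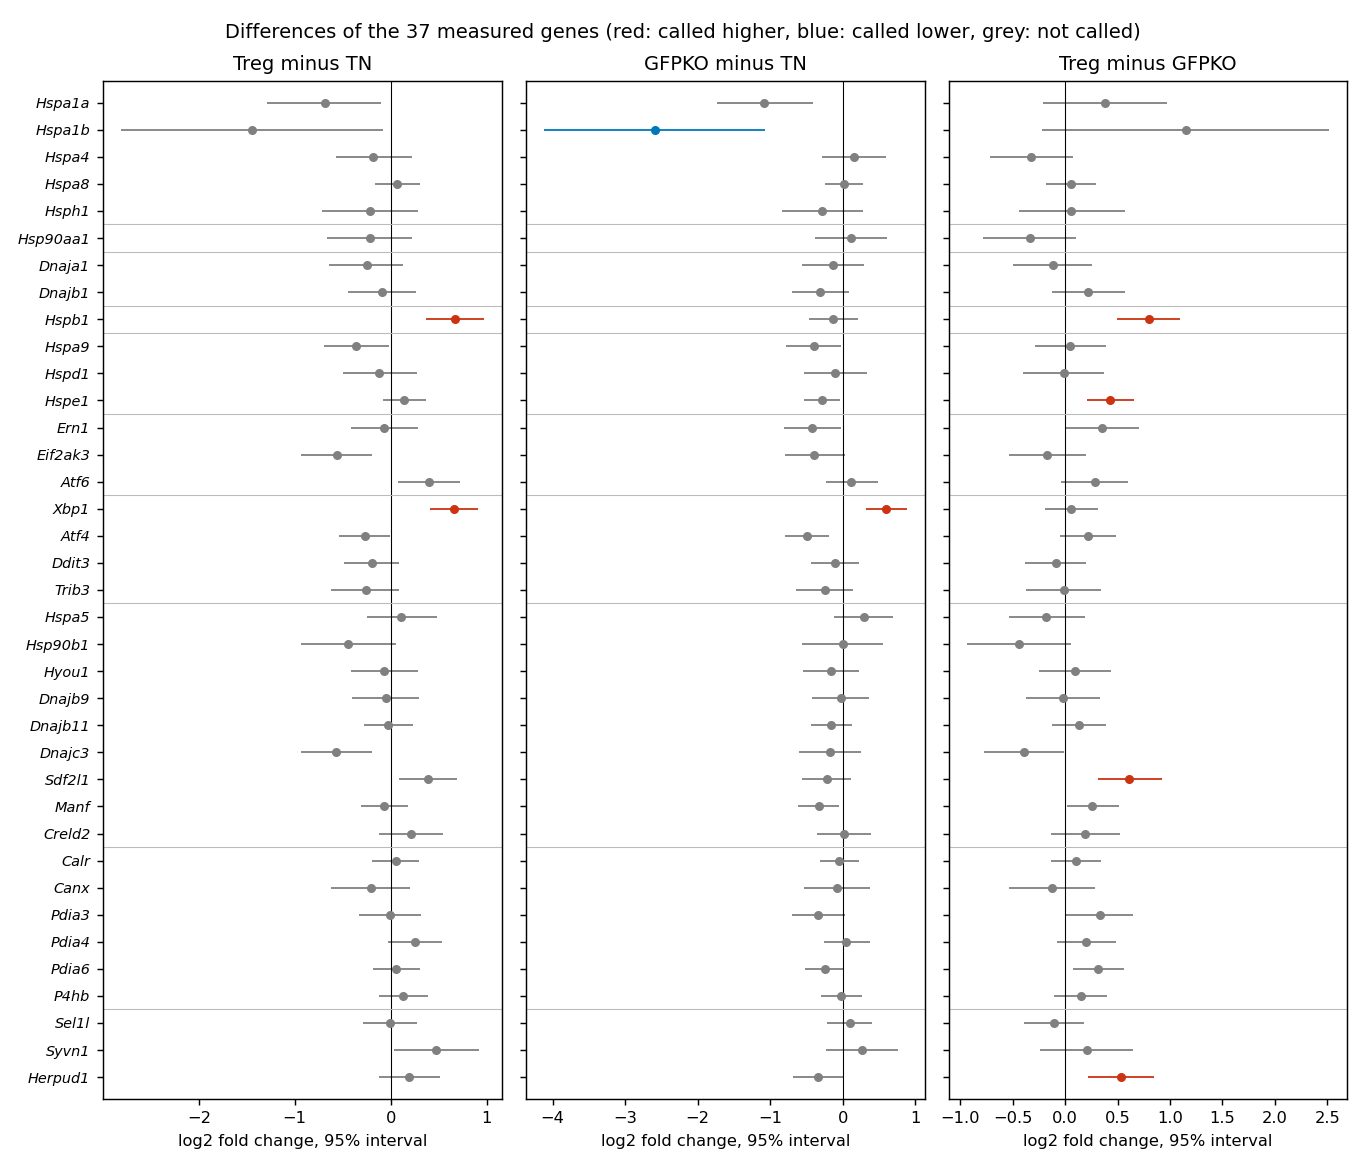
Log2 fold change with its 95% interval (horizontal axis, 1 panel per comparison, each with its own scale) of the 37 measured genes, ordered by role from cytosolic chaperones at the top to ER-associated degradation at the bottom. Red marks the genes called higher, blue the gene called lower, and grey the others, whose intervals, apart from those of Hspa1a and Hspa1b, stay within 1 log2 unit of 0.

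The intervals of most genes not called left out changes of 2-fold or more. For 33 of the 35 genes not called in Treg minus TN, 34 of 35 in GFPKO minus TN and 32 of 33 in Treg minus GFPKO, the 95% interval of the log2 difference lay within 1 unit of 0. The exceptions were Hspa1a and Hspa1b, Hspa1a, and Hspa1b, in that order. Changes smaller than 2-fold remain possible for these genes. All called differences except that of Hspa1b were also smaller than 2-fold, so the intervals do not set these genes apart from the called ones.

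Xbp1, the transcription factor gene downstream of IRE1, was the only member called higher than in TN in both Treg and GFPKO. It read 10.22, 10.32 and 10.15 in TN, 10.83, 10.96, 10.89, 10.86 and 10.92 in Treg, and 10.59, 10.92 and 10.98 in GFPKO. Every Treg and every GFPKO array lay above every TN array, and Treg and GFPKO overlapped. The means were 10.23 ± 0.08 (SD, n = 3), 10.89 ± 0.05 (n = 5) and 10.83 ± 0.21 (n = 3). Treg exceeded TN by 0.66 ± 0.12 (SE, adjusted p = 0.00112), and this call held in all 21 alternative settings. GFPKO exceeded TN by 0.60 ± 0.13 (adjusted p = 0.0111). That call was lost in 3 settings: in a fit of these groups alone (adjusted p = 0.0876), by the second brightest probe set (0.0737) and without GFPKO replicate 2 (0.0524). Treg minus GFPKO was 0.06 ± 0.12, with a 95% interval from -0.19 to 0.31. All 4 Xbp1 probe sets read higher in Treg than in TN, by 0.48 to 0.74, and 3 of them were called.

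Plasma cell markers gave mixed values beside those of Xbp1. Of 8 measured, 2 were higher in Treg than in TN (Irf4 and Prdm1, which activated T cells also express), 1 was lower (Mzb1), and Irf4 alone was called higher in GFPKO. Their mean level was 4.41 to 4.81 in TN, 4.79 to 4.97 in Treg and 4.71 to 4.89 in GFPKO. Tnfrsf17, the plasma cell receptor BCMA, stayed under the background level in all arrays (2.03 to 2.55). Above that level in all arrays were Sdc1 (4.32 to 4.76), Mzb1 (4.22 to 5.53), Derl3 (4.66 to 5.85), Irf4 and Prdm1. Fkbp11 was above it in all arrays except Treg replicate 1 (3.99). Jchain, the joining chain of secreted antibodies, read 2.68 to 3.43 in Treg and 2.87 to 3.40 in GFPKO, under the background level. In TN, Jchain read 5.05, 4.71 and 2.73, above the background level in replicates 1 and 2. In bulk samples, fewer cells of a type and less RNA per cell cannot be told apart. The part of plasma cells in the Xbp1 differences was not tested.

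The other 3 regulators were not called. Atf4, the factor that amino acid shortage and PERK both use, read 10.08 to 10.27 in TN, 9.68 to 10.17 in Treg and 9.59 to 9.78 in GFPKO, so that all GFPKO arrays lay below all TN arrays (GFPKO minus TN -0.49 ± 0.14, adjusted p = 0.0535). This difference passed the threshold in 6 of the 21 alternatives. Ddit3, which encodes the pro-apoptotic factor CHOP, had group means of 8.55, 8.35 and 8.44, and Trib3, the pseudokinase induced by ATF4 and CHOP, had means of 5.88, 5.62 and 5.63 in TN, Treg and GFPKO. By these brightest probe sets, their groups differed by no more than 0.26 between means. The second Ddit3 probe set was lower in Treg than in TN (-0.53 ± 0.14). It was called when p was adjusted over all single-symbol probe sets in limma (adjusted p = 0.0341). Ddit3 passed the threshold in this comparison in 2 of the 21 alternatives. The second Trib3 probe set gave -0.59 ± 0.20 for GFPKO minus TN and was not called.

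The 3 sensors had differences of either sign, none past the threshold. Eif2ak3 (PERK) read 7.59, 7.49 and 7.27 in TN, 7.25, 6.98, 7.10, 6.58 and 6.56 in Treg, and 7.17, 7.25 and 6.77 in GFPKO. All Treg and all GFPKO arrays lay below all TN arrays, with Treg minus TN at -0.56 ± 0.17 (adjusted p = 0.0568), and 9 of the 21 alternatives called it. Atf6 read 5.22, 5.11 and 5.23 in TN against 5.74, 5.73, 5.47, 5.35 and 5.64 in Treg, without overlap (0.40 ± 0.15, adjusted p = 0.123), and 5 alternatives called it. Ern1 (IRE1) had means of 6.23, 6.17 and 5.81 in TN, Treg and GFPKO. GFPKO replicate 2, at 5.33, was its lowest array, and the other GFPKO arrays read 6.04 and 6.07.

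Of the 9 chaperones and co-chaperones of the ER, Sdf2l1 was the only one called. Sdf2l1 acts with the ER HSP70 and its J proteins to keep clients soluble. It read 7.64, 7.50 and 7.47 in TN, 7.89, 7.86, 7.94, 7.82 and 8.12 in Treg, and 6.97, 7.34 and 7.63 in GFPKO. Each Treg array lay above every array of the other groups. Treg minus GFPKO was 0.61 ± 0.14 (adjusted p = 0.0131). Treg minus TN was 0.39 ± 0.14 and missed the threshold (adjusted p = 0.116). The gene has 1 probe set, and the Treg minus GFPKO call was lost in 3 of the 21 alternatives, among them without GFPKO replicate 1 (0.44, adjusted p = 0.0693) and with the actin difference as a covariate (0.43, adjusted p = 0.137).

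Hspa5, which encodes BiP, the HSP70 of the ER and the usual readout of the unfolded protein response, was not called. It read 10.85, 10.93 and 10.93 in TN, 11.17, 11.21, 11.17, 10.79 and 10.75 in Treg, and 11.49, 11.36 and 10.74 in GFPKO. The TN arrays were close together, while Treg and GFPKO each spread to both sides of them, and Treg minus TN was 0.11 ± 0.17 (95% interval -0.25 to 0.48). Hsp90b1, which encodes GRP94, the ER HSP90, ran from 8.58 to 9.69 in Treg and from 9.17 to 10.11 in GFPKO against 9.48 to 9.59 in TN.

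Dnajc3, a J protein of the ER that also restrains PERK, lay lower in every Treg array than in every TN array. It read 9.67, 9.63 and 9.72 in TN, 9.37, 9.08, 9.29, 8.93 and 8.87 in Treg, and 9.96, 9.47 and 9.07 in GFPKO. Treg minus TN was -0.57 ± 0.18 (adjusted p = 0.0572), and 10 of the 21 alternatives called it. The other J proteins, Dnajb9 (means 8.03, 7.98 and 8.00 in TN, Treg and GFPKO) and Dnajb11 (9.33, 9.30 and 9.17), overlapped in all comparisons. Manf, a secreted factor released on ER stress, read 9.98, 10.17 and 10.28 in GFPKO, below all TN (10.38 to 10.63) and all Treg arrays (10.35 to 10.55), but neither difference was called (-0.33, adjusted p = 0.192, and 0.26 for Treg minus GFPKO, adjusted p = 0.187). Creld2 (means 7.56, 7.76 and 7.57) and Hyou1, the large HSP70-like chaperone of the ER (8.40, 8.33 and 8.24), were not called either.

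None of the 6 genes for lectin chaperones and disulfide isomerases was called by limma. At an unadjusted p under 0.05, 2 passed, Pdia3 and Pdia6, both in Treg minus GFPKO (0.33 and 0.31, adjusted p = 0.204 and 0.105). Pdia6 read 9.10, 9.13 and 9.07 in GFPKO, below all TN (9.24 to 9.42) and all Treg arrays (9.27 to 9.57). Calr and Canx, the lectin chaperones that hold glycoproteins in the ER, had means of 11.62, 11.67 and 11.57, and of 10.30, 10.09 and 10.22, in TN, Treg and GFPKO. P4hb, the classical disulfide isomerase, had means of 10.40, 10.53 and 10.38, and Pdia4 had means of 8.26, 8.51 and 8.31.

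Among the 3 genes of ER-associated degradation, Herpud1 was called. Herpud1 encodes a small membrane protein that organises the degradation complex. It read 9.65, 9.41 and 9.34 in TN, 9.58, 9.61, 9.77, 9.58 and 9.78 in Treg, and 8.74, 9.29 and 9.36 in GFPKO. All Treg arrays lay above all GFPKO arrays, with TN between and overlapping both. Treg minus GFPKO was 0.53 ± 0.15 (adjusted p = 0.0333). This call was lost in 12 of the 21 alternatives, among them without GFPKO replicate 1 (0.34, adjusted p = 0.169), and 1 of its 2 probe sets was called. Syvn1, the ubiquitin ligase HRD1, had means of 7.87 ± 0.32, 8.35 ± 0.16 and 8.14 ± 0.55 in TN, Treg and GFPKO, and its partner Sel1l had means of 7.95, 7.94 and 8.05, and neither was called.

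Hspb1, the small heat shock protein HSP27, which holds unfolded proteins without using ATP, was the one cytosolic chaperone higher in Treg. It read 5.46, 5.54 and 5.74 in TN, 6.28, 6.02, 6.59, 6.07 and 6.27 in Treg, and 5.39, 5.34 and 5.62 in GFPKO. Every Treg array lay above every other array, and TN and GFPKO overlapped. The difference was 0.67 ± 0.14 against TN (adjusted p = 0.00516) and 0.80 ± 0.14 against GFPKO (adjusted p = 0.00219), while GFPKO minus TN was -0.13 ± 0.16. Both of its 2 probe sets were called, and both calls held in all 21 alternatives. The fainter probe set had means of 3.96 in TN and 3.68 in GFPKO, under the background level, so its differences are lower bounds.

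Hspa1b, the HSP70 gene that stress induces most, varied more between arrays than any other member. It read 6.61, 9.66 and 7.24 in TN, 5.80, 6.70, 5.75, 7.46 and 6.24 in Treg, and 6.73, 4.97 and 4.03 in GFPKO. TN replicate 2 was far above the other arrays, and the GFPKO and TN arrays overlapped. GFPKO minus TN was -2.59 ± 0.72 (adjusted p = 0.0469), but -1.68 with an adjusted p of 0.214 without TN replicate 2. The call was lost in 13 of the 21 alternatives, also without TN replicate 3, Treg replicates 1, 2, 3 or 5, or GFPKO replicates 2 or 3. The difference itself was -2.89 without TN replicate 3, -2.59 without a Treg replicate, and -2.46 and -1.99 without GFPKO replicates 2 and 3. The probe sets of Hspa1b, 3 in all, gave -2.79 to -2.50, and 1 of them, not the brightest, was called when p was adjusted over all single-symbol probe sets. The fainter ones had GFPKO means of 3.86 (the one called) and 3.77, under the background level, so their differences are lower bounds.

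The immediate early genes Jun and Fos read 7.44 and 7.95 in TN replicate 2, against 5.44 and 6.66 in TN replicate 1 and 6.53 and 7.45 in TN replicate 3. Of 14 immediate early genes, 3 were higher and 1 lower in GFPKO than in TN, and 3 were higher in Treg than in TN. Their part in the Hspa1b result was not tested, nor was that of the myeloid markers that were lower in GFPKO. Hspa1a is a near-identical copy of Hspa1b, so the split of signal between these 2 genes is uncertain. Its probe set had group means of 3.89, 3.19 and 2.81 in TN, Treg and GFPKO, all under the background level, so no fold is given. Its highest value, 4.92, was again in TN replicate 2.

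The other cytosolic chaperones were not called. Hspa8, the constitutive HSP70, had close groups, with means of 12.86 ± 0.04, 12.94 ± 0.12 and 12.88 ± 0.08 in TN, Treg and GFPKO. Hspa4 and Hsph1, HSP110-type exchange factors of HSP70, had means of 9.53, 9.36 and 9.68, and of 8.81, 8.60 and 8.53. The Hspa4 probe sets differed in sign for GFPKO minus TN. The brightest gave 0.15 and the faintest 0.09, the others -0.29 and -0.62, and none was called. Hsp90aa1, the inducible HSP90, read 10.43 to 10.61 in TN, 9.86 to 10.54 in Treg, and 11.20, 10.44 and 10.19 in GFPKO. The J proteins Dnaja1 (means 10.35, 10.10 and 10.22) and Dnajb1 (10.33, 10.24 and 10.02) did not pass either, although every Treg array lay below every TN array for Dnaja1 and every GFPKO array below every TN array for Dnajb1.

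Of the 3 mitochondrial chaperones, Hspe1 was called. Hspe1 read 11.85, 11.81 and 11.84 in TN, 11.96, 11.98, 12.05, 11.93 and 11.95 in Treg, and 11.41, 11.65 and 11.56 in GFPKO. The groups did not overlap, with Treg highest and GFPKO lowest, and the differences were small. Treg minus GFPKO was 0.43 ± 0.10 (adjusted p = 0.0169), Treg minus TN 0.14 ± 0.10 (adjusted p = 0.522) and GFPKO minus TN -0.29 ± 0.12 (adjusted p = 0.208). The Treg minus GFPKO call was lost in 6 alternatives, among them without GFPKO replicate 1 (0.37, adjusted p = 0.0747) and with the actin covariate (0.42, adjusted p = 0.0808).

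Hspd1, which has a promoter window that overlaps that of Hspe1, was not called. It read 9.67, 9.56 and 9.52 in TN, 9.54, 9.59, 9.64, 9.38 and 9.18 in Treg, and 9.89, 9.61 and 8.93 in GFPKO. GFPKO replicate 1 was thus the highest array for Hspd1 and the lowest for Hspe1. Hspa9, the mitochondrial HSP70, had means of 9.13 ± 0.16, 8.77 ± 0.16 and 8.73 ± 0.37 in TN, Treg and GFPKO, and every Treg array lay below every TN array (-0.36 ± 0.16, adjusted p = 0.22).

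**Figure D3:**
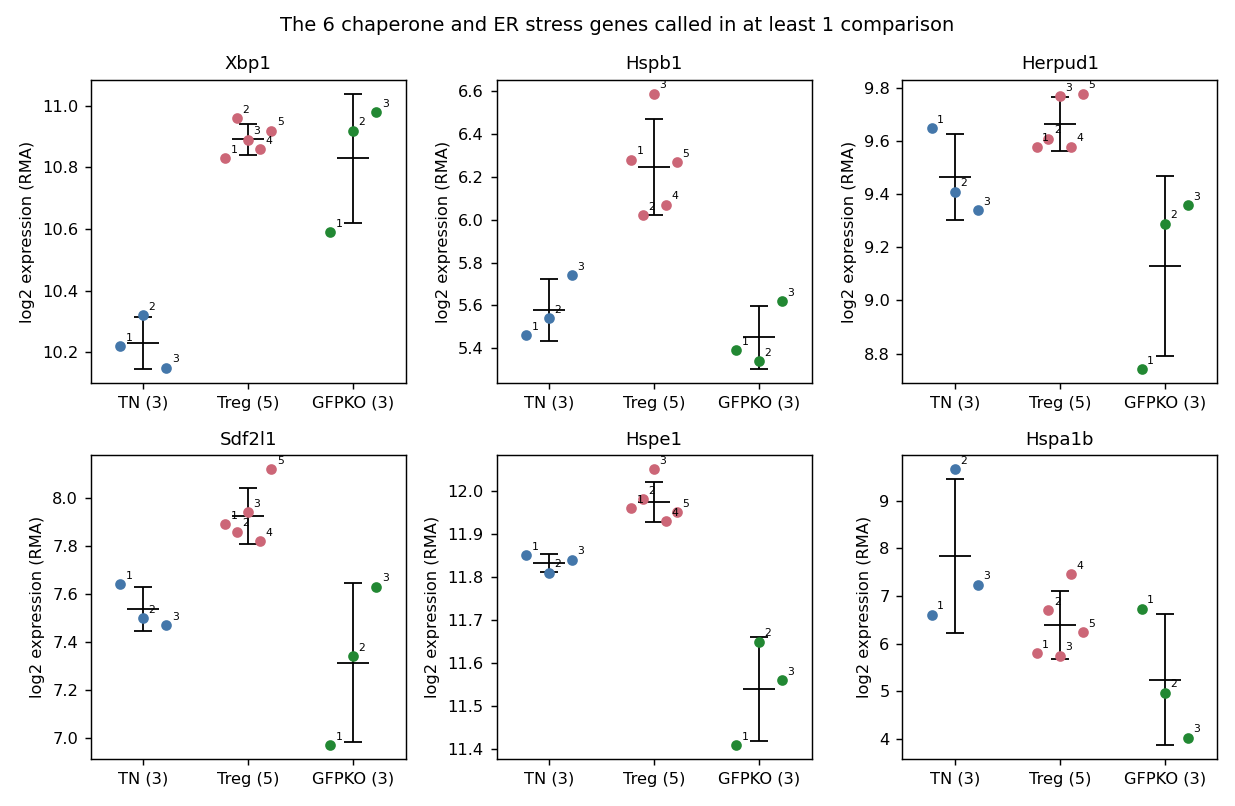
Log2 RMA value of the 6 genes called in at least 1 comparison, by group (TN 3, Treg 5 and GFPKO 3 arrays, numbered by replicate), with the mean and SD as bars; each panel has its own vertical axis, which does not start at 0. The Xbp1 values of TN lie below all others, the Hspb1 values of Treg lie above all others, and GFPKO replicate 1 is the lowest array for Herpud1, Sdf2l1 and Hspe1.

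The calls of Treg against GFPKO moved with GFPKO replicate 1. Without it, 1 of the 4 calls remained, that of Hspb1, and 1 remained with the actin covariate, again Hspb1. GFPKO replicate 1 had an actin difference of 0.77. GFPKO replicate 2 had a larger one, 0.83, and without it 4 members were still called. The part of RNA quality in these calls was not tested. Of 9 B cell markers 3, and of 16 myeloid and dendritic markers 1, were higher in Treg than in GFPKO, with mean B cell levels of 4.36 to 4.50 in Treg and 3.76 to 4.11 in GFPKO, and their part was not tested.

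The GFPKO arrays differed among themselves more in these genes than the arrays of the other groups did. The median SD of the 37 genes was 0.33 in GFPKO, 0.16 in Treg and 0.10 in TN, against 0.24, 0.17 and 0.15 over all genes and 0.28, 0.17 and 0.15 over genes above the background level. The SD was widest in GFPKO for 27 of the 37 genes, and the like count over all genes was not made. GFPKO replicate 1 was the lowest of all 11 arrays for 12 genes and the highest for 9. Treg replicate 5 was the lowest for 8 and the highest for 4, and TN replicate 1 the lowest for 2 and the highest for 8. Treg replicate 2 was the lowest for 0 and the highest for 1.

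GFPKO replicates 1 and 3 lay at opposite ends for many members, in both directions. GFPKO replicate 1 exceeded replicate 3 by more than 0.5 for 10 genes, with Hspa1b (2.69), Hsp90aa1 (1.01), Hspd1 (0.95), Hsp90b1 (0.94), Dnajc3 (0.88), Hspa4 (0.85), Dnaja1 (0.82), Canx (0.77), Hspa5 (0.75) and Atf6 (0.64). It fell below replicate 3 by more than 0.5 for 8 genes, with differences of -1.11 for Syvn1, -0.91 for Hyou1, -0.79 for Trib3, -0.75 for Creld2, -0.67 for Dnajb1, -0.66 for Sdf2l1, -0.62 for Herpud1 and -0.56 for Ddit3. Together these are 48.6% of the members, against 32.8% of all genes. Genes of the same pathway thus stood on opposite sides: the ER chaperone genes Hspa5 and Hsp90b1 on one, and Hyou1, Creld2 and Sdf2l1 on the other.

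Among the Treg arrays, replicate 5 read low for many of the cytosolic and mitochondrial chaperones. The median deviation of the 12 measured genes from the TN mean was -0.40 in Treg replicate 5 and -0.16 in replicate 4, against -0.10 to -0.06 in replicates 1 to 3, while the median of all genes was 0.08 and 0.07 in replicates 5 and 4. For the 25 ER and stress response genes the medians were 0.01 and -0.09 in these arrays. Treg replicate 5 was the lowest of the 11 arrays for 8 genes (Hspa8, Hsph1, Hsp90aa1, Dnaja1, Eif2ak3, Hsp90b1, Dnajc3 and Sel1l) and the highest for 4 (Sdf2l1, Creld2, P4hb and Herpud1). In GFPKO the cytosolic and mitochondrial medians were -0.25, -0.07 and -0.50 in replicates 1, 2 and 3.

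**Figure D4:**
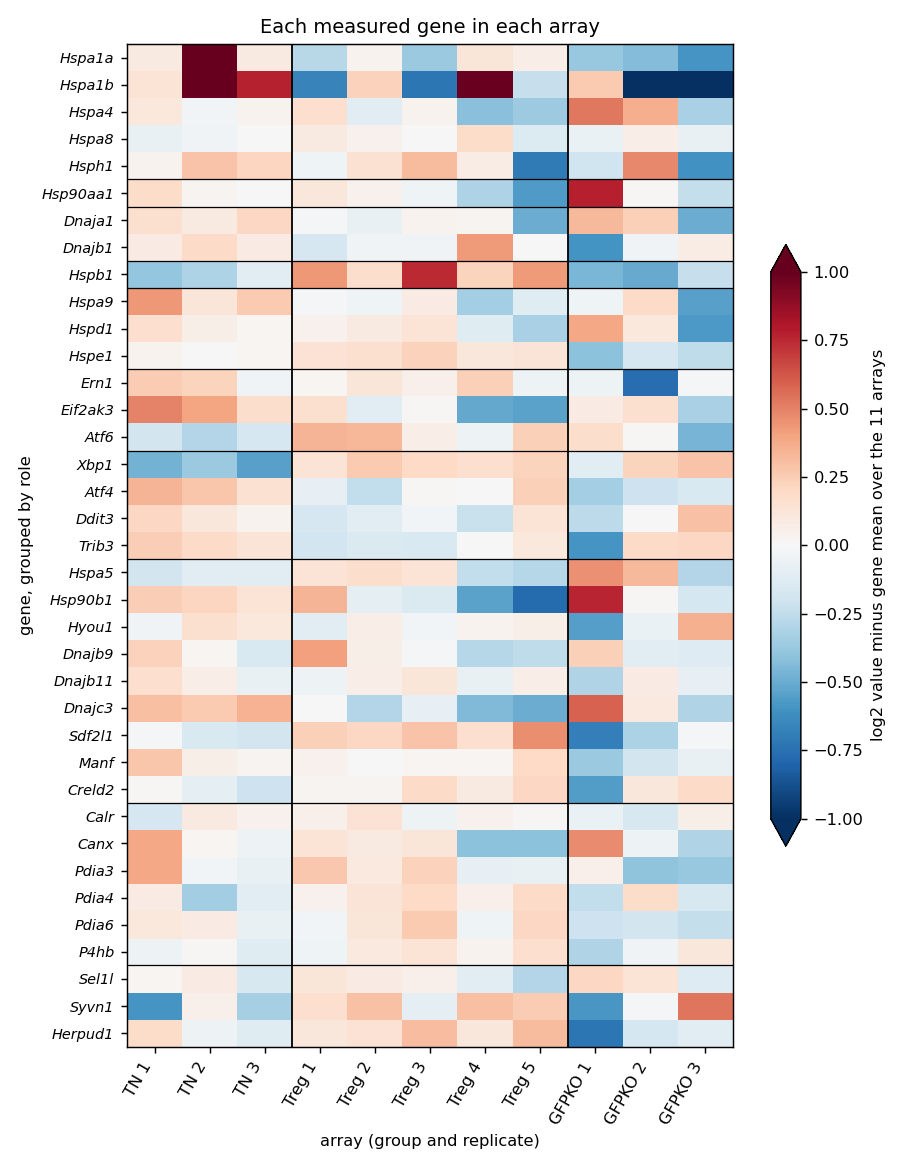
Log2 value of each of the 37 genes (rows, grouped by role) in each of the 11 arrays (columns), minus the mean of the gene over the arrays; red is above and blue below that mean, and the colour scale ends at 1 unit, beyond which values share the end colour. GFPKO replicate 1 holds both the reddest and the bluest cells of many ER genes, and TN replicate 2 stands out for Hspa1a and Hspa1b.

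The genes were next grouped by promoter motif. Over all genes, 6.54% were higher and 3.42% lower in Treg minus TN, 2.64% and 3.02% in GFPKO minus TN, and 6.88% and 2.55% in Treg minus GFPKO, so few or no calls among groups of 8 genes or fewer are no result about them. None of the 8 genes with an ERSE was called in any comparison, and the median log2 differences were 0.06 for Treg minus TN (range -0.57 to 0.47), -0.03 for GFPKO minus TN (-0.25 to 0.29) and, between Treg and GFPKO, -0.01 (-0.44 to 0.31). In limma, unadjusted p-values under 0.05 occurred for Dnajc3 (0.00592) and Syvn1 (0.0385) in Treg minus TN, and for Dnajc3 (0.0426) and Pdia6 (0.015) in Treg minus GFPKO. Their directions were mixed, with Dnajc3 negative and Syvn1 and Pdia6 positive. Of the 3 genes with a heat shock element, Hspe1 was called in Treg minus GFPKO while Hspd1, with the same stretch, differed there by -0.01 and Hsph1 by 0.06. Of the genes with an ERSE-II, Herpud1 was called in the same comparison (0.53) and Dnajb11 was not (0.13). Xbp1, Hspb1, Sdf2l1 and Hspa1b, all among the 6 genes called anywhere, held none of the motifs in their windows. Of the 31 members with a window, 17 held none.

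Genes of the same pathways outside the 39 were counted by function, and each count of calls can be read against the shares just given. Counts at an unadjusted p need another baseline. Over all 18193 genes, an unadjusted p under 0.05 in limma occurred for 2162 higher and 1461 lower in Treg minus TN. The like numbers were 1094 and 1931 in GFPKO minus TN, and 3036 and 1190 in Treg minus GFPKO. In Treg against TN, 1 of 29 cytosolic chaperone partners was higher and 1 lower, 0 of 14 subunits of the CCT chaperonin and prefoldin were called (1 lower at an unadjusted p under 0.05 in limma), and 0 of 12 genes of mitochondrial protein quality control (1 higher and 1 lower). Of 31 genes of ER translocation and folding 1 was higher, of 20 further genes of ER-associated degradation 1 was lower, and of 21 further regulators of the unfolded protein and integrated stress responses 2 were higher.

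In GFPKO against TN, the counts in the same order were 0 of 29 (1 higher and 8 lower at an unadjusted p under 0.05 in limma), 0 of 14 (1 lower), 1 lower of 12, 1 lower of 31, 0 of 20 (1 higher and 1 lower), and 2 higher and 2 lower of 21. In Treg against GFPKO they were 4 higher of 29, 0 of 14 (3 higher at an unadjusted p under 0.05 in limma), 1 higher of 12, 3 higher of 31, 0 of 20 (2 higher and 1 lower), and 3 higher of 21. No gene of these lists was called lower in Treg than in GFPKO, where 6.88% of all genes were higher and 2.55% lower.

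The regulators outside the 39 held the largest of these differences. Asns, the asparagine synthetase gene that ATF4 raises, read 3.94, 3.55 and 3.87 in TN, 4.97, 5.37, 5.54, 5.22 and 5.76 in Treg, and 4.31, 4.97 and 4.39 in GFPKO. All Treg and GFPKO arrays lay above all TN arrays, and since the TN mean of 3.79 was under the background level, the differences against TN are lower bounds: 1.59 ± 0.19 for Treg (adjusted p = 2.7e-05) and 0.77 ± 0.21 for GFPKO (adjusted p = 0.0452). Treg also exceeded GFPKO, by 0.82 (adjusted p = 0.0128). Atf4 itself, as given above, was not called in any comparison.

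Cebpb, the transcription factor C/EBP beta, read 7.31, 7.50 and 7.23 in TN, 8.02, 7.87, 7.85, 7.96 and 7.89 in Treg, and 5.73, 6.48 and 6.85 in GFPKO. The groups did not overlap. Cebpb was lower in GFPKO (mean 6.35) than in TN (mean 7.35; SE of the difference 0.21, adjusted p = 0.00931) and higher in Treg than in GFPKO (1.57 ± 0.19, adjusted p = 8.1e-05). Creb3l2, an ER membrane factor related to ATF6, was higher in Treg than in TN (0.74, adjusted p = 0.00209) and than in GFPKO (0.54, adjusted p = 0.0256). Eif2ak2, the RNA-activated kinase PKR and an interferon-induced gene, was higher in GFPKO than in TN (1.40, adjusted p = 0.0143), and Wfs1, an ER membrane protein gene, was lower (-0.62, adjusted p = 0.041).

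Among the chaperone partners, Dnaja4, a J protein gene, was higher in Treg than in TN (0.62, adjusted p = 0.0192) and than in GFPKO (0.89, adjusted p = 0.00231), and Dnajc7 was lower in Treg than in TN (-0.45, adjusted p = 0.0403). Bag3, an HSP70 partner that also binds small heat shock proteins, was higher in Treg than in GFPKO (0.88, adjusted p = 0.00191), as was Hspbp1, an HSP70 exchange factor gene (0.74, adjusted p = 0.0321). Hspa2 was called in the same comparison with means of 3.93 and 3.30, both under the background level, so no fold is given. Of the ER enzymes, Sec11c, a catalytic subunit of signal peptidase, was higher in Treg than in TN (0.54, adjusted p = 0.01) and than in GFPKO (0.62, adjusted p = 0.00582).

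Ssr4 and Spcs1, of the translocon and signal peptidase, were higher in Treg than in GFPKO (0.45 and 0.39, adjusted p = 0.0435 and 0.0367), and Ero1b, which oxidises disulfide isomerases, was lower in GFPKO than in TN (-0.46, adjusted p = 0.047). Edem3, which trims the sugars of misfolded glycoproteins, was lower in Treg than in TN (-0.88, adjusted p = 0.0455). The mitochondrial J protein gene Dnaja3 was lower in GFPKO than in TN (-0.56, adjusted p = 0.0298), and the exchange factor gene Grpel2 was higher in Treg than in GFPKO (0.44, adjusted p = 0.0301).

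**Figure D5:**
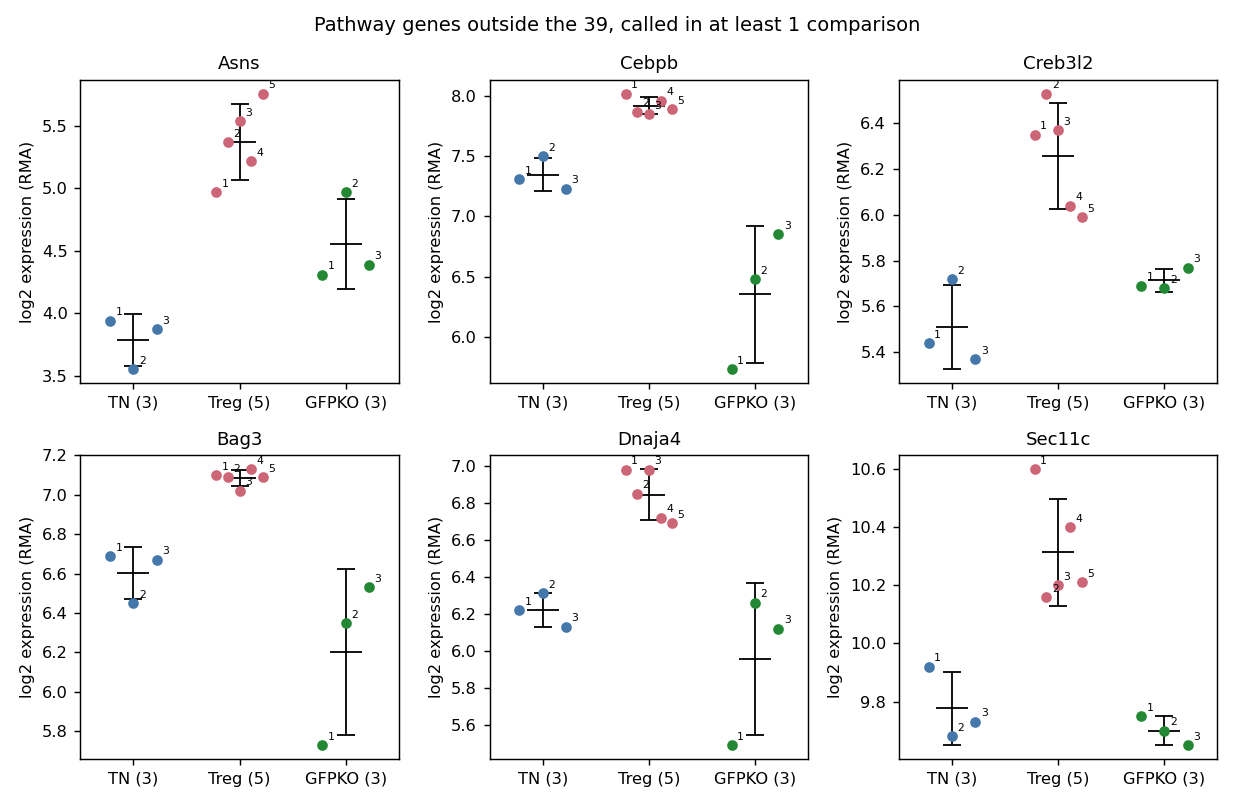
Log2 RMA value of 6 pathway genes outside the 39 that were called in at least 1 comparison, by group and array, with the mean and SD as bars; each panel has its own vertical axis, which does not start at 0. Treg arrays lie above all TN and GFPKO arrays for Bag3, Dnaja4, Sec11c, Cebpb and Creb3l2, and GFPKO replicate 1 is the lowest array for Bag3, Dnaja4 and Cebpb.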

How the data were processed

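The deposited values are RMA expression values on the log2 scale, made by the authors with RMA, per the submitters' processing notes, which corrects background, normalises by quantiles and summarises each probe set; its version and the annotation were not given in the sources used here, and the scale was read from the values (1.54 to 14.65, array medians 4.07 to 4.16). Of 45101 probe sets, 64 controls, 932 with several symbols and 9211 absent from the gene table were left out. Most controls are also among those absent, so these counts overlap. The 34945 with 1 symbol, of which 34741 matched RefSeq by Entrez ID, gave 18193 genes. No arrays held identical values, and the number of arrays limits the precision.

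Values were used as deposited in limma 3.58.1 (R 4.3.3), with lmFit, contrasts.fit and eBayes over all 11 arrays, 3 contrasts and two-sided tests. Group values are means ± SD and differences are ± SE. Results were repeated under 21 alternatives (20 for Hspa1a, which the minimum mean removes): the groups of a contrast alone, other probe set rules, a minimum mean of 5, centred arrays, trend and robust moderation, weights per group or array, the actin covariate, a replicate block and each array left out. The script was tested on simulated data. Motifs were matched by letters in RefSeq promoter windows (GRCm38.p6). Named pathway genes are up to 4 per list with the largest change among those called. The members and lists were chosen with earlier results of these data known.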

Additional observations from a re-analysis of the deposited data

Results flagged for a closer look

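In the 5 Treg arrays, the array at one end of the group stood apart from the other 4, by Dixon's criterion (critical value 0.71), for 3 of the 37 genes. Dnaja1 read 9.71 in replicate 5, against 10.13 to 10.24 in the others. Dnajb1 read 10.63 in replicate 4, against 10.04 to 10.21. Manf read 10.55 in replicate 5, against 10.35 to 10.40. Chance marks about 1 in 20 such groups, and the groups of 3 arrays were not examined in this way.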

How the results depend on the processing

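No member reversed its direction in a called difference under the 21 alternatives. Over all members and settings, 2231 results kept their side of the threshold, 60 newly passed it and 37 lost it. For Treg minus TN, the members called higher (2) became 5 in a fit of the groups compared alone, 4 with a variance weight per group and 4 with a quality weight per array, and 2 to 3 with an array left out. Those called lower (0) became 2 with the groups alone, 1 with the mean of all probe sets, 1 with the second brightest probe set, 2 with a minimum mean of 5, 3 with centred arrays, 1 with trend and robust moderation, 2 with group weights, 5 with array weights, 2 with the actin covariate and 0 to 2 with an array left out (2 each without Treg replicate 1, GFPKO replicate 1 or GFPKO replicate 3). Their median (-0.07) became -0.21 with centring and -0.10 to -0.01 with an array left out. For GFPKO minus TN, those higher (1) became 0 with the groups alone, 0 with the second brightest probe set, 2 with array weights and 0 to 1 with an array left out (0 without GFPKO replicate 2). Those lower (1) became 0 with the groups alone, 0 with the mean of probe sets, 2 with the minimum mean, 2 with trend and robust moderation, 0 with group weights, 6 with array weights and 0 to 2 with an array left out (2 without TN replicate 1, and 0 without TN replicate 2, Treg replicates 1, 2 or 3, or GFPKO replicate 2). The median (-0.13) became -0.20 with the second brightest probe set and -0.17 to -0.12 with an array left out. For Treg minus GFPKO, those higher (4) became 2 with the second brightest probe set, 2 with centring, 2 with group weights, 9 with array weights, 1 with the actin covariate and 1 to 4 with an array left out (1 without GFPKO replicate 1). Those lower (0) became 2 with array weights and 0 to 2 with an array left out (2 without GFPKO replicate 3). The median (0.10) became -0.07 with centring, 0.01 with array weights and 0.04 to 0.17 with an array left out. The cause was not tested for any of these.

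Same-numbered arrays did not go together for every replicate number of the titles. The correlation of their deviations from their group means was 0.16 to 0.51 for number 1, with the largest value for Treg and GFPKO. It was -0.07 to 0.07 for number 2 and -0.22 to 0.06 for number 3. Whether the samples of number 1 share a source or a processing step was not tested. With the replicate number as a block, the Treg minus TN median was 0.00, the members lower in GFPKO than in TN were 2, and those higher in Treg than in GFPKO were 1, with Sdf2l1 (0.58, adjusted p = 0.0642), Hspe1 (0.46, adjusted p = 0.0803) and Herpud1 (0.52, adjusted p = 0.126) no longer called.

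Over all genes, counts also moved by over 1.5 times. Treg minus TN gave 1837 higher with array weights, and 1010, 1174, 1020 and 1386 lower with the groups alone, centring, group weights and array weights, and 411 and 388 without TN replicates 1 and 2. GFPKO minus TN gave 311 and 2118 higher with the groups alone and array weights, and 251, 2933 and 229 lower with the groups alone, array weights and the actin covariate. Its lower count was 271, 312, 362 and 1224 without TN replicates 1 and 2 and GFPKO replicates 2 and 3. Treg minus GFPKO gave 675, 703, 4424, 584 and 752 higher and 899, 269, 2332, 227 and 297 lower with centring, group weights, array weights, the actin covariate and the block. Without GFPKO replicate 1 it gave 782 higher, without replicate 2 282 lower, and without replicate 3 2414 higher and 1007 lower. Probe sets with every group mean under the background level of 3.99 resolve no change. Among the brightest probe sets of the members, this concerns Hspa1a. Fainter probe sets of Hspb1 (in TN and GFPKO) and Hspa1b (in GFPKO), used above, also had group means under that level.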
